A study of Mus musculus with 3 samples.

Results

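Immunoglobulin heavy chain variable segments (Ighv genes) encode most of the variable domain of the antibody heavy chain, the domain that contacts antigen. The gene table held 185 rows whose symbol starts with Ighv, of 30905 rows in all. Every B or plasma barcode without a UMI of Cd3d, Cd3e or Cd3g was assigned to the Ighv row with most UMIs (unique molecular identifiers, each counting 1 captured transcript). Barcodes with equal leaders stayed unassigned. This gave a leading segment to 929 barcodes of the classes described here, which were 115 plasma, 43 germinal centre and 771 IgD-positive B barcodes. Another 1368 B barcodes fell in none of these classes. Of them, 119 had a leading segment, and their segment use is not described.

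The cells were leukocytes of C57BL/6 mouse colon, purified by FACS for the surface protein CD45, and transcript 3′ ends were sequenced by the 10x Genomics droplet method. Library C held healthy tissue, T1 low-grade and T3 high-grade intraepithelial neoplasia. In the labels, the neoplasia model is azoxymethane (AOM, a carcinogen) injected at 12 mg/kg, then 3 cycles of dextran sodium sulfate (DSS, which injures the colon lining) at 2.5% in drinking water for 7 days, each followed by plain water for 14 days. The model was begun at 6 to 8 weeks of age, and the labels call C healthy control tissue. Neoplasia and treatment cannot be told apart against C, and the number of mice behind a library is not stated. There was 1 library per group. No p-value was therefore computed, no difference has a replicate check, and every 95% interval (exact Clopper-Pearson for a share, exact conditional for a ratio) covers counting error only.

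A heavy chain gene is assembled in each developing B cell by joining 1 variable, 1 diversity and 1 joining segment, and allelic exclusion leaves 1 productive heavy chain per cell. Descendants of a B cell keep its variable segment, while the constant gene can be switched from Ighm and Ighd (IgM and IgD) to Igha (IgA) or an Ighg gene (IgG). IgD marks naive B cells, germinal centre B cells mutate their variable segments, and plasma cells secrete the antibody. In the gut wall most plasma cells make IgA, which the joining chain encoded by Jchain links into dimers.

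The segments on which the results turn are printed here as the last 300 bases of the variable exon, 5′ to 3′, from the GENCODE M21 transcripts of mouse build GRCm38. Capitals run from the last in-frame cysteine codon, after which the third complementarity-determining region begins, to the end of the exon. Ighv8-8 led more plasma barcodes of C than any other segment, and Ighv8-12 is a relative of it. Ighv1-26 and Ighv3-6 were the leading pair in IgD-positive barcodes of both T1 and C. Ighv1-64, Ighv1-9 and Ighv5-16 recurred in plasma barcodes, and Ighv11-2 is a segment known from B-1 cells, an innate-like B lineage of mice.
Ighv8-8: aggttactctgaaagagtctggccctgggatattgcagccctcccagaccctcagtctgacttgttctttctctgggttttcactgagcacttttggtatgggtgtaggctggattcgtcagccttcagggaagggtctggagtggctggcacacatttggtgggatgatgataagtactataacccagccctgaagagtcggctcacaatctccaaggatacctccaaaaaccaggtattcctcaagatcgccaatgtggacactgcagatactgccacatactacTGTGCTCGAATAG
Ighv8-12: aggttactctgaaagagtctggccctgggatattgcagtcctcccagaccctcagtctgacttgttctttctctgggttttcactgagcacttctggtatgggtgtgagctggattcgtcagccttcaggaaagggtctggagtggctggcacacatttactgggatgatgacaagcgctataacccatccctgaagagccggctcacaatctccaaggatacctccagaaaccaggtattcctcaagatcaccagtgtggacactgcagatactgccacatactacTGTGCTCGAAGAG
Ighv1-26: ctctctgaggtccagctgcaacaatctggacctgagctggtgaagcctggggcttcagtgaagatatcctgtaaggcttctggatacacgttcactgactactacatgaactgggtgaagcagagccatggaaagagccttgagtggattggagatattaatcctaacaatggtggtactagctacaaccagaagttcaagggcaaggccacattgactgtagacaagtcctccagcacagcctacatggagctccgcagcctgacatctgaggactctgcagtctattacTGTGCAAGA
Ighv1-64: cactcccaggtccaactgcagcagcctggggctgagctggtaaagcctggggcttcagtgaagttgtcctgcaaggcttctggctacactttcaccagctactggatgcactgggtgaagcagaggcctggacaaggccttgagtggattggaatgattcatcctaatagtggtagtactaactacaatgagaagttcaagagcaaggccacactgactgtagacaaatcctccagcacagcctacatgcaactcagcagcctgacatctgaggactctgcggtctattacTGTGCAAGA
Ighv1-9: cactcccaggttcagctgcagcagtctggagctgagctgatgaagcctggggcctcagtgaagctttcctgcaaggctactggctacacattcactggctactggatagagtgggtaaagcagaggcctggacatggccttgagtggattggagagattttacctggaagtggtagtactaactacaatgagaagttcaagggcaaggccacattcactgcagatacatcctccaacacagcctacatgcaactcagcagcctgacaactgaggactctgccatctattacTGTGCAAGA
Ighv3-6: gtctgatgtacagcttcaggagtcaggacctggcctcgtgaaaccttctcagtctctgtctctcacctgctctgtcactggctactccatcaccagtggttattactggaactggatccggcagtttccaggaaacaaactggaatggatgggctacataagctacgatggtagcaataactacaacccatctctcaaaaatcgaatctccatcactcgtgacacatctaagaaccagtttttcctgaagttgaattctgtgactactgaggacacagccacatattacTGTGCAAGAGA
Ighv5-16: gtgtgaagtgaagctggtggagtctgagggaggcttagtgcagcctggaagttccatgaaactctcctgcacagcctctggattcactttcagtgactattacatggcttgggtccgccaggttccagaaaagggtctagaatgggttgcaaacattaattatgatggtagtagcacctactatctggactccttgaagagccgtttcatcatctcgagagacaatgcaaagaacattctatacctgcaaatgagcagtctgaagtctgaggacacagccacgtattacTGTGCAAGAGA
Ighv11-2: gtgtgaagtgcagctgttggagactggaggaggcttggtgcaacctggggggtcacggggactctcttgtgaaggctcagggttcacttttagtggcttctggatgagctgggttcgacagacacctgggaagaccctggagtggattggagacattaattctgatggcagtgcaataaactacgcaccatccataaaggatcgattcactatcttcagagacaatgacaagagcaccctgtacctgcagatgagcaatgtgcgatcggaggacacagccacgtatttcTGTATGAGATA
All lie on the minus strand of chromosome 12, inside the heavy chain locus. In order of distance from the joining segments, the printed bases span chr12:113838526-113838825 (Ighv5-16), chr12:114048241-114048540 (Ighv11-2), chr12:114288152-114288451 (Ighv3-6) and chr12:114583569-114583868 (Ighv1-9). Farther out are chr12:114788372-114788671 (Ighv1-26), chr12:115294062-115294361 (Ighv8-8), chr12:115507545-115507844 (Ighv1-64) and chr12:115647945-115648244 (Ighv8-12). Ighv8-8 and Ighv8-12 were 94.9% identical over the exon, and Ighv8-8 and Ighv1-26 were 54.5% identical. The ending TGTGCAAGA of the 3 Ighv1 segments was that of 46 of 112 segments (41.1%), and Ighv11-2 ends in TGTATGAGATA.

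Of the 185 rows, 113 are annotated as variable genes, 70 as variable pseudogenes and 2 as gene type IG_LV. The family Ighv1 holds 93 rows, Ighv5 22, Ighv8 16 and Ighv2 11. A UMI was found for 119 rows, 66 rows were at 0 in every library, and 64 had a UMI in all 3 libraries. Pseudogenes took 0.860% of the 5697 Ighv UMIs, with a UMI in 17 of 70. The symbols Ighv1-13 and Ighv5-8 each stand for 2 gene IDs, a pseudogene and an IG_LV gene on the opposite strand, and their rows were kept apart. Likeness limits how surely reads tell segments apart: 57 of 113 variable exons had another at 95% identity or more, 14 at 98% or more, and Ighv1-62-2 and Ighv1-71 were identical. The nearest relative of Ighv1-26 was Ighv1-18 at 97.4%, that of Ighv8-8 was Ighv8-11 at 96.2%, and that of Ighv1-64 was Ighv1-72 at 96.1%.

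Libraries C, T1 and T3 held 35489195, 37208603 and 15898397 UMIs in 7903, 8566 and 5779 barcodes, of which 6004, 6143 and 4543 had at least 200 genes and at most 20% mitochondrial UMIs. Ighv rows took 2831, 2562 and 304 UMIs of these totals. T3 stood apart in depth and blood cell RNA, with Hbb-bs (a haemoglobin chain) in 65.4% of its kept barcodes, against 0.195% in T1 and 0.183% in C. Ptprc, which encodes CD45, had a UMI in 88.8%, 86.9% and 75.2% of kept barcodes of C, T1 and T3. The labels call the mice male, yet Xist, the transcript of the inactive X chromosome in females, had a UMI in 87.4%, 86.4% and 75.5% of kept barcodes of C, T1 and T3. The Y-linked genes Ddx3y, Eif2s3y and Uty had none and Kdm5d had 0, 1 and 1 UMI. Of the barcode sequences, 77 occurred in more than 1 library, and the plasma barcodes among them are described after the segment pairs.

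The classes were plasma (at least 20 Jchain UMIs), germinal centre (at least 2 of 6 markers) and IgD-positive (at least 1 Ighd UMI). Sdc1, a plasma cell surface gene that was not used to define a class, had a UMI in 75% of plasma, 1.14% of germinal centre and 2.63% of IgD-positive barcodes of T1, and in 61.4%, 0% and 2.34% of those of C. Mzb1, another plasma cell gene, was in 96.4% of plasma and 95.5% of germinal centre barcodes of T1, and in 95.5% and 92.8% of those of C, so it did not tell these classes apart. IgD-positive barcodes had Ccr7, a homing receptor of naive lymphocytes, in 67.2%, 75.2% and 62.2% in C, T1 and T3. These classes numbered 88, 56 and 5 plasma, 125, 88 and 8 germinal centre and 2098, 2278 and 648 IgD-positive barcodes in C, T1 and T3.

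Plasma barcodes carried far more Ighv transcript per UMI than other classes. Summed over the class, Ighv rows took 967 CPM (UMIs per 1000000 UMIs of the class) in plasma barcodes of T1 and 737 CPM in those of C (log2 ratio 0.39, interval 0.27 to 0.51), whereas IgD-positive barcodes had 40.6, 34.8 and 41.5 CPM in C, T1 and T3. T barcodes, which should lack heavy chains, had 2.30, 3.09 and 1.17 CPM. A segment was assigned in 89.3% of plasma barcodes of T1 (50 of 56, interval 78.1 to 96.0%) and in 70.5% of those of C (62 of 88, interval 59.8 to 79.7%). In IgD-positive barcodes the assigned share was 16.5% in C (347 of 2098), 15.1% in T1 (344 of 2278) and 12.3% in T3 (80 of 648). Germinal centre barcodes had 23 of 125 assigned in C, 16 of 88 in T1 and 4 of 8 in T3. An Ighv UMI occurred in 1.33%, 1.64% and 0.460% of T barcodes at median depths of 5733.5, 6165.5 and 3920 UMIs, below the 17.1%, 15.5% and 12.7% of IgD-positive barcodes at 4666, 5092 and 3714 UMIs. Drawn down to 1000 UMIs each, 4.32%, 3.57% and 5.34% of IgD-positive and 0.166%, 0.563% and 0.165% of T barcodes kept an Ighv UMI, so the IgD-positive level stayed above the T level in all 3 libraries.

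How firmly a segment was known differed between the classes. Assigned plasma barcodes had a median of 14 Ighv UMIs in T1 (1 to 68) and 13 in C (1 to 149), and the leading segment held 99.1% of plasma Ighv UMIs in T1 and 96.9% in C. A single segment was seen in 41 of 50 assigned plasma barcodes of T1 and in 49 of 62 of C. By contrast, 314 of 347 assigned IgD-positive barcodes of C, 301 of 344 of T1 and 71 of 80 of T3 rested on 1 UMI, so segment counts in this class are counts of single transcripts.

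Within the plasma class the Ighv UMIs followed the amount of constant gene transcript. At least 200 UMIs of the leading heavy chain constant gene were present in 47 of 56 plasma barcodes of T1, 57 of 88 of C and 2 of 5 of T3. Of these, 46 in T1 (97.9%), 56 in C (98.2%) and 2 in T3 had an assigned segment. The remaining 31 barcodes of C, 6 of them assigned, had a median of 15 UMIs of Ms4a1, a B-cell surface gene that plasma cells lose, and the remaining 9 of T1 a median of 2. The class was thus mixed, and 25% of its barcodes had an Ms4a1 UMI in T1 and 37.5% in C. The germinal centre markers Mef2b, Rgs13 and S1pr2 had a UMI in 34.1%, 27.3% and 25% of plasma barcodes of C. Plasma was assigned before germinal centre, so a barcode with at least 20 Jchain UMIs and such markers counts as plasma. Over all plasma barcodes, Ighv and constant gene UMIs had a Spearman rho of 0.75 in T1 and 0.71 in C, a description over barcodes that share a library and its depth. In constant-rich barcodes the median was 8.52 Ighv UMIs per 1000 constant gene UMIs in T1 and 6.25 in C.

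**Figure D1:**
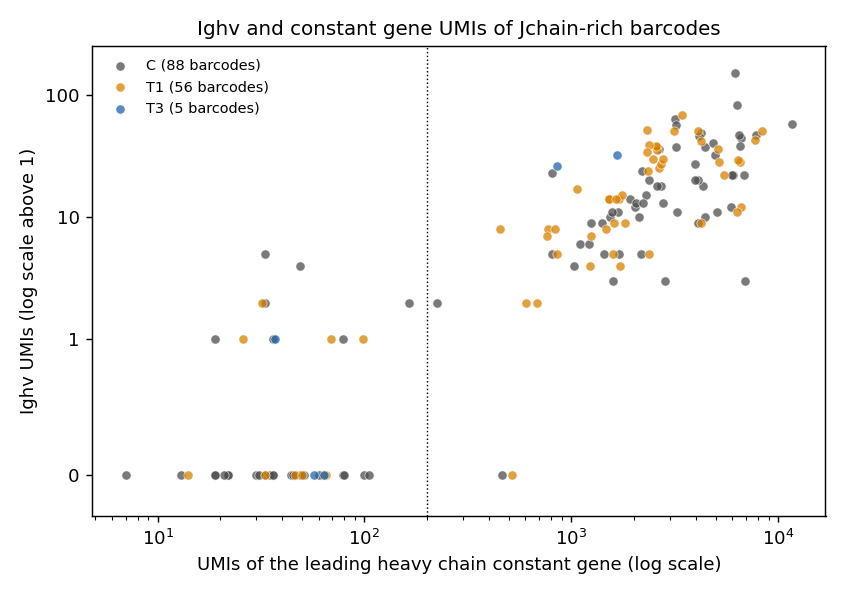
Each point is 1 plasma barcode, with UMIs of its leading heavy chain constant gene on the x axis (log scale), Ighv UMIs on the y axis (log scale above 1) and colour for the library. To the right of the dotted line at 200 constant gene UMIs nearly every barcode has Ighv UMIs, whereas most barcodes to its left sit at 0.

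Plasma barcodes used many segments and few of them more than once. In T1, 50 assigned barcodes used 31 segments, 18 of which led 1 barcode each. In C, 62 used 38 segments, 22 of them once, and 33.3 segments would be expected in 50 barcodes drawn from C. The effective number of segments (inverse Simpson) is the number of equally used segments that would give the same share of barcode pairs with the same segment. It was 45.4 in T1 and 44.0 in C, and it can exceed the number seen because it is estimated from pairs drawn without replacement. In both libraries no segment led more than 11.3% of plasma barcodes. Of the segments, 17 were used in both, which is 54.8% of those of T1 and 44.7% of those of C.

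Ighv1-26 and Ighv1-64 were the most used segments in plasma barcodes of T1, with 4 of 50 each (8%, interval 2.22 to 19.2%), while in C they led 3 and 1 of 62. The 4 Ighv1-26 barcodes of T1 had 23, 5, 5 and 8 Ighv1-26 UMIs and the constant genes Ighg2c, Ighg2c, Igha and Ighm, and the 3 of C had 9, 11 and 22 UMIs, all with Igha. The 4 Ighv1-64 barcodes of T1 had 1, 2, 25 and 15 UMIs, and the 1 of C had 2. The Ighv1-26 barcodes of T1 thus span 3 heavy chain classes, and each had a different light chain segment.

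Ighv5-16 and Ighv5-17, both of the family Ighv5, led 3 plasma barcodes each in T1, and 0 and 1 in C. The Ighv5-16 barcodes had 39, 7 and 34 UMIs, and the Ighv5-17 barcodes of T1 had 11, 14 and 4. The family as a whole led 8 of 50 plasma barcodes of T1 (16%) and 4 of 62 of C (6.45%), a log2 ratio of 1.31 with an interval of -0.59 to 3.49 that includes no difference.

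Ighv8-8 led 7 of 62 plasma barcodes of C (11.3%, interval 4.66 to 21.9%), against 1 of 50 in T1 (2%). The 7 barcodes of C had 9 to 13 Ighv8-8 UMIs, a narrow range, and all 7 had Igha as their leading constant gene. None of their barcode sequences occurred in another library. They carried 6 different kappa light chain segments, so they do not form 1 heavy and light chain pair. The T1 barcode had 8 Ighv8-8 UMIs with Igha, and a T3 barcode had 16 with Ighg2b. Between T1 and C the log2 ratio of the share was -2.50, with an interval of -7.99 to 0.46. Ighv1-9 was next in C with 4 barcodes (1, 83, 37 and 22 UMIs), all with Igha, and led 0 of 50 in T1, where up to 6% (3 counts) could go unseen. Over all barcodes of the library, in or out of a class, Ighv1-9 had 377 UMIs in C and 47 in T1.

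No segment passed a rule of a 2-fold ratio of shares with an interval that excludes 1 between plasma barcodes of T1 and C (0 of 52 segments with a barcode in either, 0%). The same rule on summed UMIs of all genes with at least 100 UMIs called 234 of 2133 genes (11%) between these plasma classes, 21 higher and 213 lower in T1. The classes differed in make-up, since 31 of 88 barcodes in C and 9 of 56 in T1 had under 200 constant gene UMIs. The part of this in the calls was not tested. Among 6 Ighv rows with at least 100 UMIs, 2 were higher and 2 lower in T1. These calls rest on few barcodes. Ighv1-55 (81 UMIs in T1, 47 in C) and Ighv1-81 (87 in T1, 61 in C) led 2 barcodes in each library, whereas Ighv4-1 (0 in T1, 155 in C) had 148 of its UMIs in 1 barcode and Ighv1-9 (0 in T1, 143 in C) had 83 in 1.

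Against IgD-positive barcodes of the same library, Ighv8-8 had a higher share in plasma barcodes of C. It led 11.3% of plasma barcodes (7 of 62) and 1.44% of IgD-positive barcodes (5 of 347), a log2 ratio of 2.97 (interval 1.10 to 4.97). It was the 1 segment of 85 past the rule without a minimum of barcodes (1.18%), and with 12 barcodes in all it lies under the minimum of 20. The family Ighv8 led 8 of 62 plasma barcodes and 14 of 347 IgD-positive barcodes of C, a log2 ratio of 1.68 (interval 0.22 to 3.03). Of these 8 plasma barcodes, 7 were those led by Ighv8-8, so the family ratio is not a separate result. In T1 the rule called 0 of 86 segments (0%), and Ighv8-8 led 1 of 50 plasma and 9 of 344 IgD-positive barcodes. With 1 library each, whether C and T1 differ in this was not tested. Of the segments in plasma barcodes, 29 of 31 in T1 and 35 of 38 in C were also found in IgD-positive barcodes of the same library. IgD-positive barcodes used 84 segments in T1 and 82 in C, of 105 rows that led a barcode in any class described. The overlap is therefore not read as a result about plasma barcodes.

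**Figure D2:**
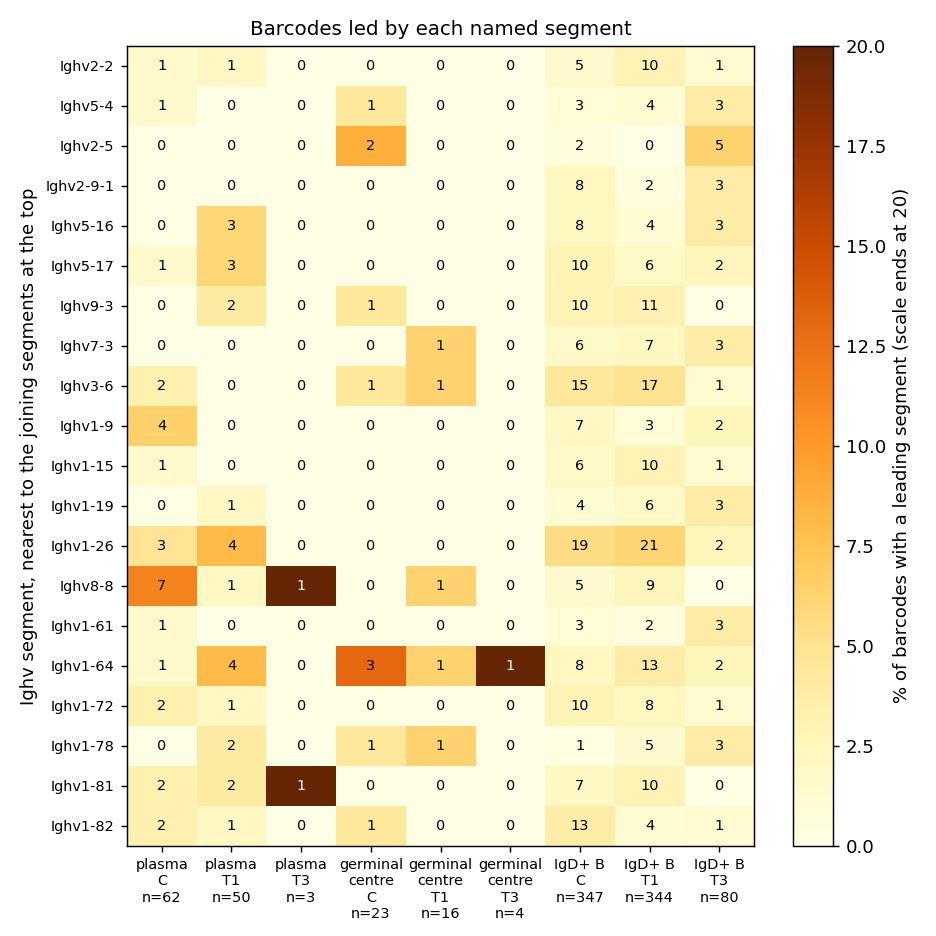
Rows are the segments named by the rule, ordered by distance from the joining segments, and columns are classes and libraries. Numbers are barcodes led by the segment and colour is their percent of assigned barcodes, with the scale ending at 20. Ighv8-8 has 7 barcodes in the plasma column of C and Ighv1-26 has 21 in the IgD+ column of T1 and 19 in that of C, and the T3 plasma and germinal centre columns hold 3 and 4 barcodes in all.

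Most plasma barcodes of T1 and C carried IgA. Among constant-rich barcodes, IgA led in 36 of 47 in T1 (76.6%) and 51 of 57 in C (89.5%). IgG led in 9 of 47 in T1 (19.1%, interval 9.15 to 33.3%) and 4 of 57 in C (7.02%, interval 1.95 to 17.0%), and these intervals overlap. Both such barcodes of T3 were IgG, with Ighg2b. The 9 IgG barcodes of T1 used 8 segments, of which Ighv1-26 occurred more than once, and the 4 of C used 3, of which Ighv1-81 occurred more than once. Summed Ighg1 had 1642 UMIs in T1 plasma barcodes and 1 in C, and 1637 of these came from 1 barcode, which used Ighv5-17. Summed Ighg3 had 1644 UMIs in T1 and 18 in C, with 1618 from 1 barcode that used Ighv6-3. Of 8 heavy chain constant genes, 6 had enough UMIs for the rule in this class. Ighg1 and Ighg3 were called higher in T1, and Ighm lower (log2 ratio -1.79), while Igha was not called (0.17). The Ighm call also rests on few barcodes, since 2 barcodes held 1372 of 1468 Ighm UMIs in T1 and 2 held 8299 of 8846 in C. Of 4 light chain constant genes, Iglc1 was called higher (log2 ratio 1.14), with 26786 of 28250 UMIs from 1 barcode in T1 and 19883 of 22319 from 1 barcode in C. Of 9 plasma cell genes, 8 could be tested and none was called.

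Pairing of heavy and light segments showed little repetition. A heavy and a light variable segment could be named for 49 plasma barcodes of T1 and 55 of C, with 47 and 53 different pairs. In T1 the repeated pairs were Ighv1-81 with Igkv1-117 (37 and 50 Ighv UMIs) and Ighv5-16 with Igkv10-94 (39 and 7). In C they were Ighv1-9 with Igkv6-14 (37 and 22) and Ighv8-8 with Igkv3-2 (13 and 10). All 4 repeated pairs were IgA in both barcodes, and the cell barcodes of each pair differed at 7 to 13 bases. One pair, Ighv1-72 with Igkv4-57, occurred in both T1 (14 Ighv UMIs, Ighg2b) and C (4, Igha). Without the junction sequence, a shared pair does not show a shared clone.

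A single C barcode joined Ighv11-2 with Igkv14-126 and Ighm, with 49 Ighv UMIs and 4220 Ighm UMIs. This pair, chosen here after its values were seen, is known in mice from B-1 cells that bind phosphatidylcholine. Ighv11-2 also led 4 IgD-positive barcodes of T1 and 3 of C, and it had 0 UMIs in T3.

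Some plasma barcode sequences occurred in more than 1 library. In T3, 3 of 5 plasma barcodes had a sequence also found in another library, against 4 of 56 in T1 and 13 of 88 in C. Over all 3 libraries 18 such plasma sequences had 29 shallower copies. The 25 copies of constant-rich barcodes had 1.12 to 1.49% of the UMIs of the deepest library, and all 25 had its leading constant gene. Where a copy had an Ighv UMI, in 5 cases, it was of the same segment. Leaving out shallow copies leaves T3 with 2 plasma barcodes. One had 32 UMIs of Ighv1-81 and the other 16 of Ighv8-8 among 26 Ighv UMIs, both with Ighg2b. Segment use of T3 plasma barcodes is therefore not described further.

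Germinal centre barcodes gave few assigned segments. In C, 23 barcodes used 20 segments, and Ighv1-64 led 3 of them (13.0%, interval 2.78 to 33.6%), each from 1 UMI. In T1, 16 barcodes used 16 segments, and in T3 4 used 4. None of 29 segments passed the rule between T1 and C (0%). Of 8 genes of recombination and mutation, 3 had enough UMIs for the rule and none was called. Over all genes tested, 1.51% were called. Rag1 and Rag2, which cut the segments for joining, and Dntt, which adds bases at the joints, had 0 UMIs in all 3 classes of every library.

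IgD-positive barcodes gave the most assigned segments. They used 82, 84 and 49 segments in C, T1 and T3, and drawing 80 barcodes would be expected to give 45.9 segments in T1 and 46.6 in C, near the 49 seen in T3. The effective numbers were 57.4, 53.2 and 71.8. Ighv1-26 was the most used segment in T1 (21 of 344, 6.10%) and in C (19 of 347, 5.48%), followed by Ighv3-6 with 17 in T1 and 15 in C. In T3 Ighv1-26 led 2 and Ighv3-6 led 1 of 80. Next in T1 came Ighv1-64 with 13, Ighv9-3 with 11 and Ighv1-15, Ighv1-81 and Ighv2-2 with 10 each. In C they were Ighv1-82 with 13 and Ighv1-72, Ighv5-17 and Ighv9-3 with 10 each. A UMI of Ighv1-26 was found in 23 of 2278 IgD-positive and 4 of 1826 T barcodes of T1, and in 20 of 2098 IgD-positive and 2 of 1874 T barcodes of C.

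No difference in segment use passed the rule between T1 and C in this class. No segment of 4 with at least 20 barcodes was called between them (0%), and none of 98 without that minimum (0%). The log2 ratio of T1 over C was 0.16 for Ighv1-26 (interval -0.81 to 1.13), 0.19 for Ighv3-6 (interval -0.90 to 1.3), 0.15 for Ighv9-3 (interval -1.22 to 1.54) and 0.71 for Ighv1-64 (interval -0.67 to 2.19). These intervals reach beyond 2-fold in at least 1 direction, so a change of that size in that direction is not excluded. Ighv1-82 led 4 barcodes in T1 and 13 in C, with an interval of the log2 ratio from -3.76 to 0.01. Across the 113 variable gene rows, barcodes per segment in T1 and C had a Pearson r of 0.78 and a Spearman rho of 0.74, a description over rows that share the 2 libraries. Of the segments used, 68 were common to both, 81.0% of those of T1 and 82.9% of those of C.

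**Figure D3:**
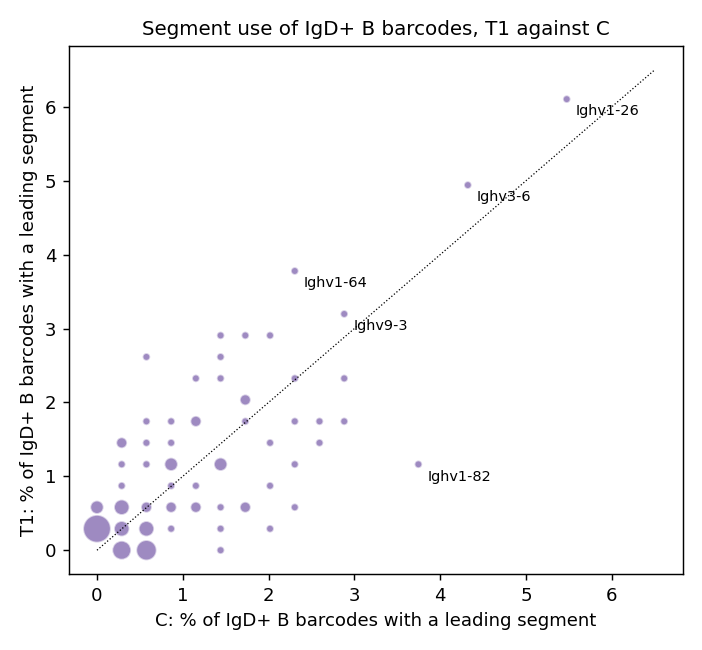
Each point is a segment, or several with equal values in a larger point, placed by its percent of assigned IgD+ B barcodes in T1 on the y axis and in C on the x axis, with a dotted line of equal use. Ighv1-26 (6.10% in T1, 5.48% in C) and Ighv3-6 lie farthest out and close to the line, and Ighv1-82 lies below it.

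In T3 the most used IgD-positive segment was Ighv2-5, which led 5 of 80 barcodes (6.25%, interval 2.06 to 14.0%), against 0 of 344 in T1 and 2 of 347 in C. No T barcode of any library had a UMI of Ighv2-5. The log2 ratio of T3 over C was 3.44 (interval 0.83 to 6.83), and against T1 the lower bound of the log2 ratio was 1.98. Ighv1-19, Ighv1-61, Ighv1-78, Ighv2-9-1, Ighv5-16, Ighv5-4 and Ighv7-3 led 3 barcodes each in T3. Without a minimum of barcodes, Ighv2-5 and Ighv1-78 (3 of 80 in T3, 1 of 347 in C) were the 2 of 85 segments called between T3 and C (2.35%), and Ighv2-5 the 1 of 91 between T3 and T1 (1.1%). With at least 20 barcodes over the libraries compared, Ighv1-26 alone could be tested in each comparison of T3 and was not called (log2 ratio of T3 over C -1.13, interval -4.28 to 0.92). The values of T3 rest on a library that is shallower and holds haemoglobin RNA in 51.1% of its IgD-positive barcodes, and the part of this in the segment counts was not tested.

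Summed Ighv CPM did not differ by 2-fold in the IgD-positive class. The log2 ratio was -0.22 for T1 over C (interval -0.42 to -0.02), 0.03 for T3 over C (interval -0.30 to 0.36) and 0.26 for T3 over T1 (interval -0.08 to 0.58). No single Ighv row reached 100 UMIs over any pair of libraries, so none could be tested on UMIs, while 0.96%, 3.86% and 3.31% of all genes tested were called in these comparisons. The constant genes of the class gave other values. Ighg2b was higher in T1 than in C (35.1 and 9.29 CPM, log2 ratio 1.92, interval 1.59 to 2.26), but 12.7% of T barcodes of T1 and 3.31% of those of C also had an Ighg2b UMI, near the 13.8% and 3.19% of IgD-positive barcodes. Igha was lower in T3 than in C (23.4 and 257 CPM, log2 ratio -3.46), with a UMI in 6.94% of IgD-positive barcodes of T3 and 58.4% of those of C, and T barcodes had an Igha UMI in 12.6% in T3 and 65.2% in C. These shares of IgD-positive barcodes lie near or under those of T barcodes of the same library, so they are not read as a difference in expression by IgD-positive barcodes, and the part of free RNA was not tested.

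By family, Ighv1 led a similar share in each class. It took 29 of 50 plasma barcodes of T1 (58%) and 35 of 62 of C (56.5%), and 52.4%, 55.2% and 50% of IgD-positive barcodes of C, T1 and T3. Ighv1 holds 93 of the 185 rows. Ighv5 led 13 of 80 IgD-positive barcodes of T3 (16.2%), against 25 of 344 of T1 (7.27%), a log2 ratio of 1.16 (interval 0.07 to 2.18). It led 34 of 347 of C (9.80%), where the interval of -0.32 to 1.69 includes no difference. All families were compared, and Ighv5 alone had an interval that excluded no difference for T3 over T1. Ighv2 led 12.5% in T3 and 5.23% in T1, a log2 ratio of 1.26 (interval -0.02 to 2.45). Ighv8 led 0 of 80 in T3, where up to 3.75% (3 counts) could go unseen, and 14 of 344 in T1 and 14 of 347 in C. The upper bound of the log2 ratio was 0.37 for T3 over T1 and 0.39 for T3 over C, so both intervals include no difference.

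**Figure D4:**
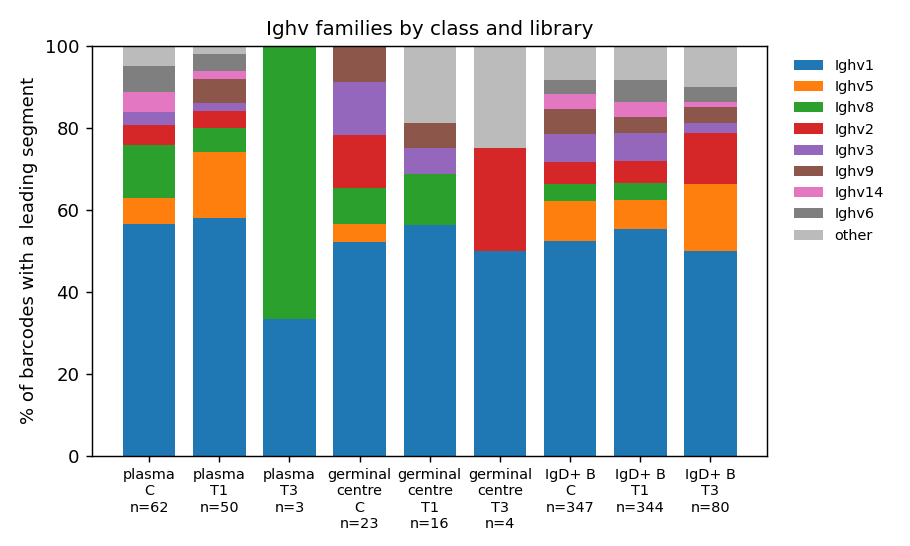
Stacked bars give each family's percent of assigned barcodes by class and library, with the number of assigned barcodes (n) under each bar and rarer families joined as other. Ighv1 (blue) takes between 50% and 58% in the IgD+ bars and the plasma bars of C and T1, and the plasma and germinal centre bars of T3 rest on 3 and 4 barcodes.

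Segments from the whole length of the locus were used in both classes. The Ighv rows lie 143 to 2580 kb from Ighj1, the first joining segment. Segments within 1289.9 kb led 46% of plasma barcodes in T1 (interval 31.8 to 60.7%) and 43.5% in C (interval 31.0 to 56.7%). In IgD-positive barcodes they led 54.2%, 50.3% and 63.8% in C, T1 and T3, with intervals of 48.8 to 59.5%, 44.9 to 55.7% and 52.2 to 74.2%. The median distance was 1359 kb in T1 and 1425 kb in C for plasma barcodes, and 1228, 1279 and 1089 kb in C, T1 and T3 for IgD-positive barcodes. T3 thus had the nearest median, for which no interval was computed. The interval of its share within 1289.9 kb overlaps those of C and T1.

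**Figure D5:**
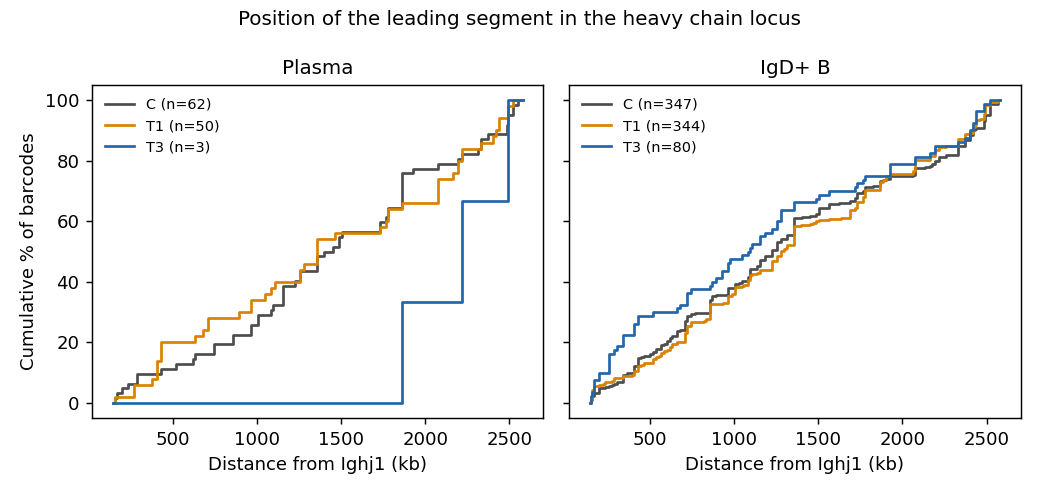
Lines show the cumulative percent of barcodes (y axis) whose leading segment lies within a distance from Ighj1 in kb (x axis), for plasma (left) and IgD+ B barcodes (right) of each library. The steep step in the plasma line of C near 1864 kb is Ighv8-8, which leads 7 of 62 barcodes, and the T3 line of the IgD+ panel runs above those of C and T1 over most of its length.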

How the data were processed

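CD45+ colon cells of 3 groups were measured, with 1 library each, and groups were taken from the labels. The deposited matrices hold UMI counts, whole numbers by gene and barcode that carry no normalization. Libraries used the 10x Genomics Single Cell 3′ V3.1 kit, per the labels' protocols. Tools listed in the submitters' processing notes, with no role for any, are Cell Ranger 3.1.0, CASAVA 1.8 and Seurat 3.1.4, beside build GRCm38. How reads shared by near-identical segments were counted is not stated, so those segments are uncertain. CPM are UMIs summed over a class, scaled to a total of 1000000. Exons, coordinates and gene types were matched by gene ID to GENCODE M21.

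The members, lists and rules were chosen with earlier results of these data known. Barcodes with under 200 genes or over 20% mitochondrial UMIs were left out. Doublets were not called. Classes were set per barcode in this order, each without a CD3 UMI: plasma (at least 20 Jchain UMIs), germinal centre (Cd79a or Ms4a1 and at least 2 of 6 markers, among them Mef2b, Rgs13, S1pr2, Gcsam and Nuggc; 1 marker is not reported here) and IgD-positive B (Cd79a or Ms4a1 and Ighd). T barcodes served as background. Named segments were the 5 most used in each class and library with at least 3 barcodes, ties kept, and those called between IgD-positive classes. Others named were chosen after their values were seen. A call needed a 2-fold ratio, an interval excluding 1 and at least 20 barcodes (100 UMIs for CPM). Depth per library is given above. Most IgD-positive assignments rest on single UMIs, and the part of depth in this was not tested. Python 3.11.15, numpy 2.4.6, scipy 1.17.1, pandas 2.3.3 and edlib 1.3.9 (exon identity) were used. The rules were tested on simulated data. The alternatives were the barcode filter, 2 Ighv UMIs, an 80% lead, 50 Jchain UMIs, 3 germinal centre markers, 2 Ighd UMIs, CD3 UMIs allowed, 1000 UMIs per barcode, shared barcodes left out and no minimum. A minimum of 200 constant gene UMIs and leaving out shallow copies were chosen after seeing the data.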

Additional observations from a re-analysis of the deposited data

How the results depend on the processing

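Under the alternatives, 334 recomputed values stayed within their interval, or within 1.5 times for counts, and 48 did not. A minimum of 50 Jchain UMIs gave 2 plasma barcodes in T3 and 53 in C, with 94.3%, 97.9% and 100% assigned in C, T1 and T3. A minimum of 200 constant gene UMIs gave 2 in T3 and 57 in C, with 98.2%, 97.9% and 100% assigned in C, T1 and T3. T3 had 14 plasma barcodes with no barcode filter, 8 with CD3 UMIs allowed, and 2, all assigned (100%), when shared barcodes or shallow copies were left out. At 2 Ighv UMIs the assigned shares in C, T1 and T3 were 1.57%, 1.89% and 1.39% of IgD-positive and 2.4%, 2.27% and 0% of germinal centre barcodes. IgD-positive barcodes then used 31 segments in T1 and 27 in C, with 9.09% on the most used and 45.5% in Ighv1 in C.

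Drawn down to 1000 UMIs, the assigned shares were 42.5%, 47.2% and 100% (plasma), 3.23%, 2.30% and 12.5% (germinal centre) and 4.27%, 3.57% and 5.17% (IgD-positive) in C, T1 and T3. Segments in use then numbered 19 in plasma barcodes of T1 and 23 in those of C, and 52, 46 and 22 in IgD-positive barcodes of C, T1 and T3, whose effective number in T3 was 36.2 and whose Ighv1 share in T1 was 47.5%. The effective number in germinal centre barcodes of C was 105 without shared barcodes. With no minimum of barcodes, 2 segments were called for T3 over C and 1 for T3 over T1. With no minimum of UMIs, 6, 2 and 4 Ighv rows were called for T1 over C, T3 over C and T3 over T1. The share of all genes called at this setting was not computed, so these counts are not read as a result about Ighv rows. Fewer UMIs or barcodes follow from how these alternatives are built. Otherwise the cause was not tested. Of 197 alternatives for 33 log2 ratios of named segments, 189 stayed within the interval and 8 moved beyond it. Reversed calls numbered 0, but a reversal needs a call. With the minimum of 20 barcodes no segment share was called, and without it few were. This 0 therefore says little about how stable the ratios are.

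No paired analysis was possible because each group has 1 library. Assigned IgD-positive barcodes mostly held about 1 Ighv UMI each, and the part of depth in this was not tested. No comparison separates neoplasia from treatment or library from group.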

Other observations

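Barcodes with at least 20 Jchain UMIs and a CD3 UMI were kept out of the plasma class and numbered 44 of 132 in C, 28 of 84 in T1 and 3 of 8 in T3. They held 665, 645 and 52 Ighv UMIs, which is 23.5%, 25.2% and 17.1% of all Ighv UMIs of the library. An Ighv UMI was found in 32 of 44, 24 of 28 and 2 of 3 of them. The median number of CD3 UMIs was 1 in C, 5.5 in T1 and 1 in T3. Ighv1-9 had 377 UMIs in all barcodes of C, of which 143 lay in the plasma class, and 47 in all barcodes of T1, of which 0 did.

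Some plasma barcodes held a second segment of another family. In C, 1 barcode had 37 UMIs of Ighv1-36 and 7 of Ighv4-1, and another had 15 of Ighv1-42 and 7 of Ighv6-7. In T3, 1 barcode had 16 of Ighv8-8 and 5 of Ighv1-54. The exons of these pairs were 61.6%, 61.4% and 52.9% identical. The C barcode with Ighv4-1 in second place carried Igkv15-103, as did the C barcode with 148 Ighv4-1 UMIs. The 2 C barcodes with Ighv8-8 and Igkv3-2 each had 11525 UMIs in all, with 543 and 597 Jchain UMIs, and their cell barcodes differed at 12 bases.

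Epcam, an epithelial surface gene, had a UMI in 39.3% of plasma barcodes of T1 and 35.2% of those of C, and in 0% of germinal centre barcodes in both, while Krt8 had a UMI in 0% and 3.41% of these plasma barcodes.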
